A study of Mus musculus with 4 samples.

Results

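The mitochondrial ribosomal protein genes were taken as the genes whose array name is Mrpl or Mrps followed by a number and at most 1 letter. This gave 75 genes (46 named Mrpl and 29 named Mrps) of the 28463 gene names on the array, represented by 125 probes. Mouse embryonic fibroblasts (MEFs), primary cells grown from the embryo, were measured on 1 one-colour array per condition. The four-factor cells were fibroblasts that had received 4 transduced genes used to reprogram cells towards pluripotency, c-Myc, Klf4, Oct3/4 and Sox2; they grew for 72 hours (labelled day 4) at 21% or 5% O2. Untransduced fibroblasts were grown for 10 days (labelled day 10) at 21% or 5% O2. The labels give no vector, strain or number of embryos, and no sort of transduced cells. Both four-factor arrays were on slide 1 and both untransduced arrays on slide 2, so the effects of the slide, its scan, the days of growth and the transduction cannot be told apart, while each oxygen comparison lies within 1 slide. With 1 array per condition there is no replicate error for any single comparison.

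Mitochondrial ribosomes translate the few messenger RNAs encoded by mitochondrial DNA, which specify core subunits of the respiratory chain and ATP synthase. Their ribosomal RNAs are mitochondrial, but all their proteins are encoded in the nucleus, made in the cytosol and imported. Some of these proteins descend from bacterial ribosomal proteins and others are particular to mitochondria. By this division the large subunit had 48 of the genes (30 with a bacterial counterpart and 18 particular to mitochondria) and the small subunit 26 (16 and 10). Despite their names, Mrps30 and Mrps18a belong to the large subunit. Mrps36, later assigned to the oxoglutarate dehydrogenase complex, was listed apart.

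Values are log2 of the background-subtracted signal minus the 75th percentile of that array, called the log2 signal below, and a difference of 1 is 2-fold. Where a gene had several probes, the brightest stood for it. By that probe all 75 genes were well above background on all 4 arrays; of the 125 probes 114 were so, 7 on some arrays and 4 on none. Between 57.1% and 68.4% of all probes were well above background per array, the four-factor arrays being the higher, and no spot was saturated. The standard deviation of replicate spots was 0.041 to 0.055 log2 units, which measures spots within an array only. All 10 fibroblast markers were well above background on every array, but 7 of 10 were at least 2-fold lower in four-factor cells at either oxygen level, among them the proteoglycan genes Lum and Dcn. The summed signal of the 10, in multiples of the 75th percentile, was 750.0 and 627.0 in four-factor cells (21% and 5% O2) against 1260.0 and 1210.0 in untransduced cells. That sum mixes directions: S100a4, the brightest of the 10 in four-factor cells, was higher there by 0.40 and 0.86.

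Four-factor cells were first compared with untransduced fibroblasts at each oxygen level. Nearly all mitochondrial ribosomal protein genes were higher in four-factor cells: 74 of 75 at 21% O2 and 75 of 75 at 5% O2, where 49% and 49.3% of all genes measured were higher. Lower were 1 gene at 21% O2 (51% of all genes) and 0 at 5% O2 (50.7%). The median difference of the 75 genes was 0.63 at 21% O2 and 0.84 at 5% O2, against -0.019 and -0.015 over all genes. At least 1.5-fold higher were 43 genes at 21% O2 (23.2% of all genes) and 52 at 5% O2 (28% of all genes), and at least 2-fold higher were 14 (11.8%) and 27 (17.1%). None was 1.5-fold lower, where 26% of all genes were at 21% O2 and 30% at 5% O2. In bulk RNA, a change in the make-up of the culture and a change of RNA per cell cannot be told apart.

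**Figure D1:**
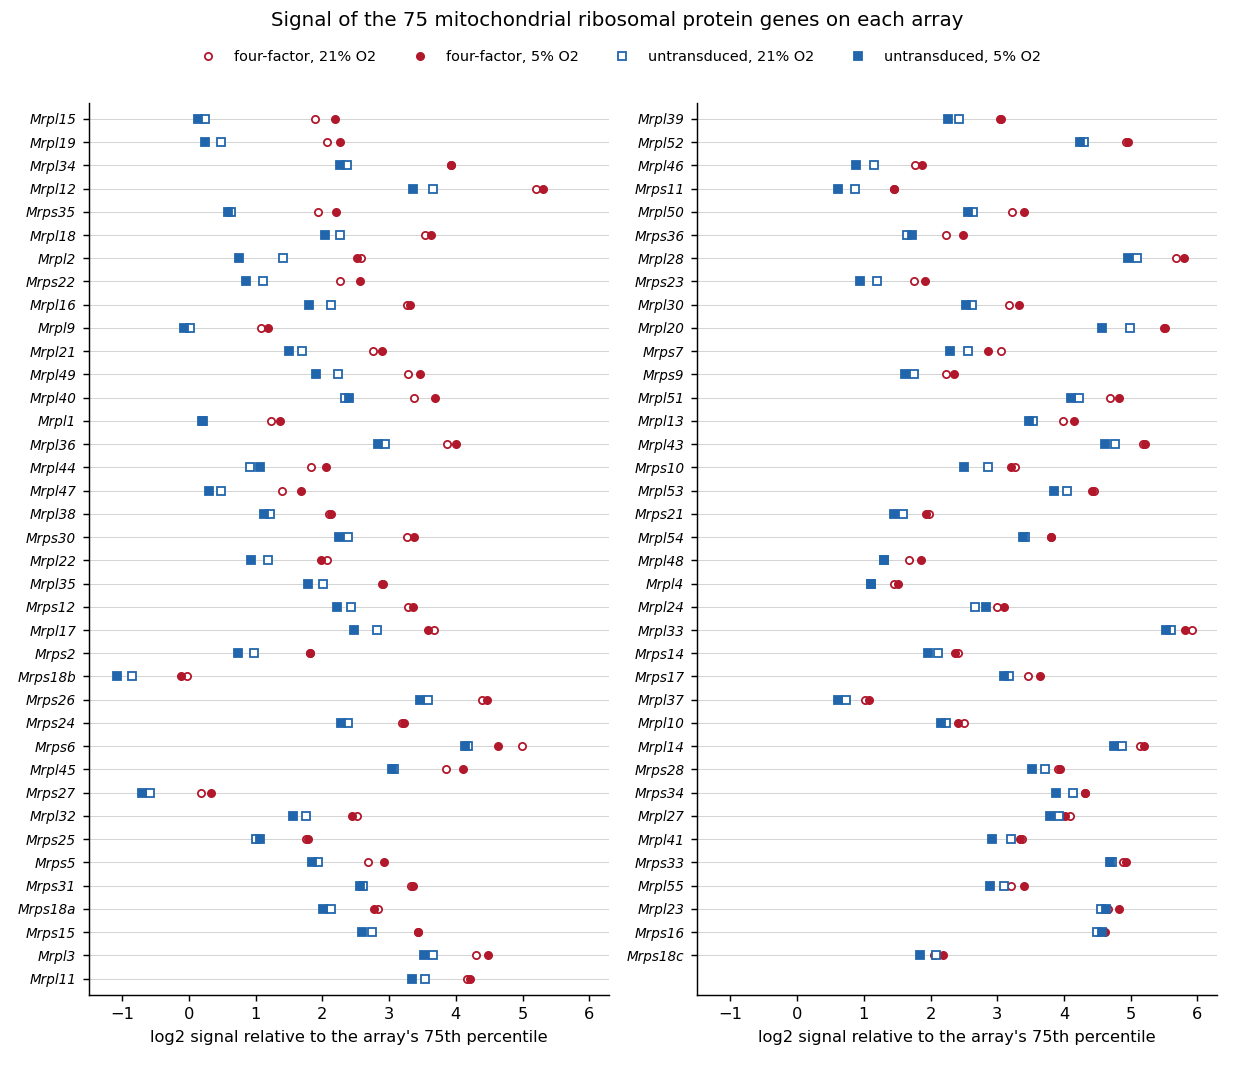
Log2 signal of the 75 genes on the 4 arrays, relative to the 75th percentile of each array, ordered by the difference between cultures at 21% O2 (red circles, four-factor; blue squares, untransduced; open, 21% O2; filled, 5% O2; 1 array each). Both red symbols lie to the right of both blue symbols for 73 of 75 genes; rows are different probes and their levels are not compared with each other.

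Both four-factor arrays lay above both untransduced arrays for 73 of the 75 genes, against 40.9% of all genes well above background on 4 arrays, and below them for 0 (41.2% of all genes). The exceptions were Mrps16 and, by its brightest probe, Mrps18c, whose cultures overlapped. The test the design allows is an additive limma fit of all 4 arrays on culture and oxygen, with 1 residual degree of freedom. A gene's own error is how far its oxygen effect differs from one culture to the other, and limma moderates it over all genes fitted. The part borrowed from other genes counted as 2.79 degrees of freedom, more than the gene's own. The adjusted p values of single genes therefore rest largely on the error of other genes. By the culture term of this fit 48 of 75 genes (64%) were called higher in four-factor cells and 0 lower at an adjusted p of 0.05, where 27.1% of all 18828 genes fitted were higher and 22.5% lower. This term holds transduction, time, slide and scan together.

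The furthest apart were large subunit proteins with a bacterial counterpart. Mrpl15, a core protein of the large subunit, had a log2 signal of 1.88 and 2.19 in four-factor cells (21% and 5% O2) and 0.24 and 0.14 in untransduced cells. Its difference was 1.65 at 21% O2 and 2.05 at 5% O2, the highest of all 75 at both, and its culture term was 1.85 (SE 0.19, adjusted p 0.00759, limma). Mrpl19 had a log2 signal of 2.07 and 2.26 in four-factor cells against 0.48 and 0.24, and differed by 1.60 and 2.02 (SE of the culture term 0.19, adjusted p 0.00805, limma). Both genes were thus about as far apart as each other, and the oxygen level shifted each array by far less than the culture did.

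Mrpl34 had a log2 signal of 3.94 and 3.93 in four-factor cells and 2.37 and 2.26 in untransduced cells, a difference of 1.57 and 1.67. Mrpl12, which forms the stalk that recruits translation factors, had 5.20 and 5.30 against 3.66 and 3.36, a difference of 1.54 and 1.94 (culture term 1.74, SE 0.19, adjusted p 0.00832, limma). The other stalk proteins were less far apart. Mrpl11, at the base of the stalk, had 4.17 and 4.21 against 3.54 and 3.35, a difference of 0.63 and 0.86 (adjusted p 0.0323, limma). Mrpl10, which holds Mrpl12 on the ribosome, had 2.5 and 2.41 against 2.23 and 2.16, a difference of 0.27 and 0.25 that did not pass (adjusted p 0.247, limma).

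In this class 30 of 30 genes were higher at both oxygen levels, with medians of 0.80 and 1.01, and 21 of 30 were called by the culture term. Past 2-fold at 21% O2 were also Mrpl18 (1.27), Mrpl2 (1.16), Mrpl16 (1.14), Mrpl9 (1.07), Mrpl21 (1.06) and Mrpl1 (1.02), and at 5% O2 Mrpl47 (1.39), Mrpl36 (1.17), Mrpl35 (1.12), Mrpl17 (1.11) and Mrpl22 (1.05) joined them. Mrpl3, beside the peptidyl transferase centre and mutated in a mitochondrial cardiomyopathy, differed by 0.64 and 0.96. Further genes at least 1.5-fold higher at both were Mrpl32 (0.76 and 0.89) and Mrpl11, while Mrpl28 (0.58 and 0.83), Mrpl30 (0.55 and 0.79), Mrpl20 (0.53 and 0.92) and Mrpl13 (0.45 and 0.67) were past 1.5-fold at 5% O2 alone. Besides Mrpl10, those under 1.5-fold at both were Mrpl23 (0.10 and 0.19), Mrpl55 (0.11 and 0.51), Mrpl27 (0.17 and 0.22), Mrpl14 (0.26 and 0.45), Mrpl33 (0.32 and 0.28), Mrpl24 (0.34 and 0.27) and Mrpl4 (0.35 and 0.41), none of which passed the limma test.

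The large subunit proteins particular to mitochondria were higher in 18 of 18 cases, with medians of 0.62 and 0.77, and 11 of 18 were called. Mrpl49 had a log2 signal of 3.28 and 3.47 in four-factor cells against 2.23 and 1.91, a difference of 1.05 and 1.56, and Mrpl40 differed by 1.04 and 1.29. Dimmer probes of Mrpl49 were less far apart, at 0.56 and 0.70 and at 0.68 and 0.87. Mrpl44, which has a ribonuclease III fold and is mutated in a mitochondrial cardiomyopathy, had 1.83 and 2.06 against 0.91 and 1.06, a difference of 0.92 and 0.99 (adjusted p 0.0172, limma). Mrpl45, which lies at the exit of the peptide tunnel next to the inner membrane, differed by 0.77 and 1.07. Mrps30 differed by 0.90 and 1.12, Mrpl38 by 0.90 and 1.0, Mrps18a by 0.71 and 0.76, Mrpl39 by 0.63 and 0.78, Mrpl52 by 0.63 and 0.71, Mrpl46 by 0.61 and 0.98 and Mrpl50 by 0.59 and 0.83. Mrpl51 (0.46 and 0.72) and Mrpl43 (0.41 and 0.60) were past 1.5-fold at 5% O2 alone. Mrpl53 (0.41 and 0.57), Mrpl41 (0.17 and 0.42), Mrpl37 (0.27 and 0.46), Mrpl48 (0.38 and 0.55) and Mrpl54 (0.38 and 0.41) were under 1.5-fold at both.

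Of the small subunit proteins particular to mitochondria 10 of 10 were higher, with medians of 0.76 and 0.97, and 8 of 10 were called. Mrps35 had a log2 signal of 1.93 and 2.20 in four-factor cells against 0.62 and 0.58 in untransduced cells, a difference of 1.31 and 1.62 (culture term 1.47, SE 0.18, adjusted p 0.00976, limma). Mrps22, mutated in a fatal mitochondrial disease of infancy, had 2.26 and 2.56 against 1.11 and 0.85, a difference of 1.15 and 1.71 (adjusted p 0.0140, limma). Mrps27, a pentatricopeptide repeat protein, differed by 0.77 and 1.03, Mrps26 by 0.81 and 1.0, Mrps31 by 0.72 and 0.80, Mrps25 by 0.76 and 0.71, and Mrps23 by 0.56 and 0.98. Mrps34 (0.18 and 0.44) and, by its brightest probe, Mrps33 (0.16 and 0.24) were the least apart. Dimmer probes of Mrps33 were higher by 1.20 and 1.24 and by 0.30 and 0.44.

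The small subunit proteins with a bacterial counterpart held the genes that differed least. Of these 15 of 16 were higher at 21% O2 and 16 of 16 at 5% O2, with medians of 0.49 and 0.64, and 7 of 16 were called. Mrps12, part of the decoding centre, had a log2 signal of 3.29 and 3.35 in four-factor cells against 2.42 and 2.23, a difference of 0.87 and 1.13 (adjusted p 0.0183, limma). Mrps2 differed by 0.85 and 1.08, Mrps24 by 0.81 and 0.94, Mrps5 by 0.74 and 1.08, Mrps15 by 0.69 and 0.84 and Mrps11 by 0.59 and 0.84. Mrps9 (0.48 and 0.74) and Mrps10 (0.41 and 0.70) were past 1.5-fold at 5% O2 alone, Mrps6 (0.80 and 0.49) at 21% O2 alone, and Mrps7 (0.51 and 0.57) at neither. Dimmer probes of Mrps6 (1.08 and 0.75) and Mrps7 (0.85 and 0.90) were past 1.5-fold at both.

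At the low end, Mrps16 had a log2 signal of 4.51 and 4.62 in four-factor cells and 4.5 and 4.56 in untransduced cells, a difference of 0.0058 and 0.056 (adjusted p 0.882, limma). All 4 arrays of Mrps16 were thus nearly level. Mrps28 (0.21 and 0.43), Mrps17 (0.28 and 0.53), Mrps14 (0.29 and 0.41) and Mrps21 (0.40 and 0.48) were higher by less than 1.5-fold.

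The homologues of bacterial S18, which are paralogues of each other, differed by their brightest probes. In the division used here Mrps18a and Mrps18b were counted as particular to mitochondria and Mrps18c as having a bacterial counterpart. Mrps18b was higher by 0.82 and 0.97 (adjusted p 0.0203, limma) and Mrps18a by 0.71 and 0.76 (adjusted p 0.0296, limma). Mrps18c had a log2 signal of 2.06 and 2.19 in four-factor cells and 2.09 and 1.85 in untransduced cells, so its difference was -0.03 at 21% O2 and 0.34 at 5% O2 (adjusted p 0.524, limma). A second probe of Mrps18c, nearly as bright and well above background on all 4 arrays, was higher by 0.26 and 0.58. The difference between these paralogues was not tested. Mrps36, outside the ribosome, was higher by 0.58 and 0.77.

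**Figure D2:**
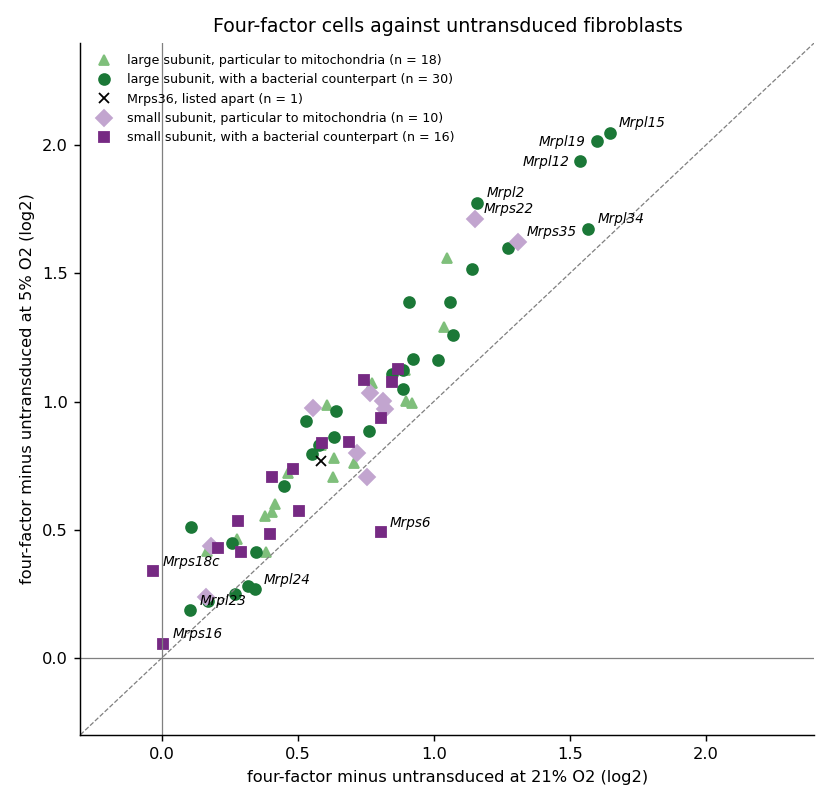
Difference between four-factor and untransduced cells (log2) at 21% O2 (x axis) and at 5% O2 (y axis) for each of the 75 genes, marked by subunit class; the dashed line is equality and each value rests on 1 array per condition. Of the 75 genes 70 lie above the dashed line, with Mrps6 the furthest below it, and Mrpl15, Mrpl19 and Mrpl12 are at the upper end.

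Most genes with several probes gave 1 direction. Probes differed in sign for 4 of 27 such genes at 21% O2 and 3 of 28 at 5% O2, where 23.9% and 23% of all genes with several probes did. In 4 genes such probes were more than 1.5-fold from each other. A dim second probe of Mrps15, from a cDNA clone, was lower by 0.69 at 5% O2 while the bright probe was higher by 0.84. At 21% O2 the probes of Mrps2 ran from -0.11 to 0.85 and those of Mrps9 from -0.07 to 1.0. The fourth, Mrps18b, is described among the results for a closer look. Probes of 1 direction could still lie on either side of 1.5-fold, as in Mrps6, Mrps7, Mrps33, Mrpl28, Mrpl43 and Mrpl49. The median standard deviation between probes of a gene was 0.23 and 0.26 over all genes. Differences of this size, such as those of the brightest probes of Mrpl27 or Mrps33, are within the spread between probes.

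Oxygen was compared next within each culture. At 5% O2 the four-factor cells had 52 of 75 genes higher (48.4% of all genes) and 23 lower (51.6%), with a median of 0.066 against -0.010 over all genes. None was 1.5-fold apart, where 4.77% of all genes were higher and 5.59% lower by that much. In untransduced fibroblasts the direction was the other way: 67 of 75 were lower at 5% O2 (55.2% of all genes) and 8 higher (44.8%), with a median of -0.13 against -0.036. There 1 gene was at least 1.5-fold lower (5.74% of all genes) and 0 higher (6.83%). The median standard deviation between probes of a gene was 0.095 and 0.083 over all genes, and 37 of the 75 genes in four-factor cells and 55 in untransduced cells differed by more than that. The quartiles of all genes were -0.21 and 0.17 in four-factor cells and -0.22 and 0.17 in untransduced cells. These lie past that spread on both sides, so differences beyond it are common among all genes and do not mark out the 75.

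The widest oxygen difference was that of Mrpl2, a protein of the peptidyl transferase region, whose log2 signal was 0.75 at 5% O2 and 1.41 at 21% O2 in untransduced cells, a difference of -0.67. In four-factor cells it was 2.52 and 2.57, a difference of -0.05. Also low at 5% O2 in untransduced cells were Mrpl20 (-0.42), Mrps10 (-0.37), Mrpl17 (-0.34) and Mrpl16 (-0.33). The highest in that culture were Mrpl24 (0.17), Mrpl44 (0.15), Mrpl23 (0.08), Mrps36 (0.07) and Mrps25 (0.07). For Mrps36 and Mrps25 this rests on the brightest probe, and a second probe of each was lower (-0.14 and -0.08).

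In four-factor cells the highest were Mrpl40 (0.31), Mrps22 (0.30), Mrpl15 (0.30), Mrpl47 (0.29) and Mrps35 (0.27). The lowest was Mrps6, whose log2 signal was 4.63 at 5% O2 and 4.99 at 21% O2, a difference of -0.36, followed by Mrps7 (-0.19), Mrpl33 (-0.12), Mrpl22 (-0.09) and Mrpl10 (-0.09). A second probe of Mrps7 was higher by 0.08. In Mrps30 a dim second probe, from a cDNA clone, was lower by 0.82 while the bright probe was higher by 0.09. Probes differed in sign for 8 of 31 genes in four-factor cells and 11 of 27 in untransduced cells, against 29.1% and 26.1% of all genes.

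Set side by side, the oxygen comparisons share no array. Of the 75 genes 44 had more signal at 5% O2 in four-factor cells and less in untransduced cells (24.1% of all 15339 genes well above background on 4 arrays), 0 the reverse (20.5%), 8 higher in both (23.8%) and 23 lower in both (31.6%). The oxygen difference of four-factor cells minus that of untransduced cells had a median of 0.23 and was above 0 in 70 of 75 genes, against 0.022 and 52.6% of all genes. This is the same quantity as the larger gap between cultures at 5% than at 21% O2. It was widest for Mrpl2 (0.62), Mrps22 (0.56), Mrpl49 (0.51), Mrpl47 (0.48) and Mrps23 (0.42), and below 0 for Mrps6 (-0.31), Mrpl24 (-0.07), Mrps25 (-0.05), Mrpl33 (-0.03) and Mrpl10 (-0.02). The opposite directions of Mrpl49 and Mrpl47 rest on their brightest probe: another Mrpl49 probe was higher in both cultures (0.16 and 0.02) and another Mrpl47 probe lower in both (-0.08 and -0.37). With no replicate array the difference was not tested.

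**Figure D3:**
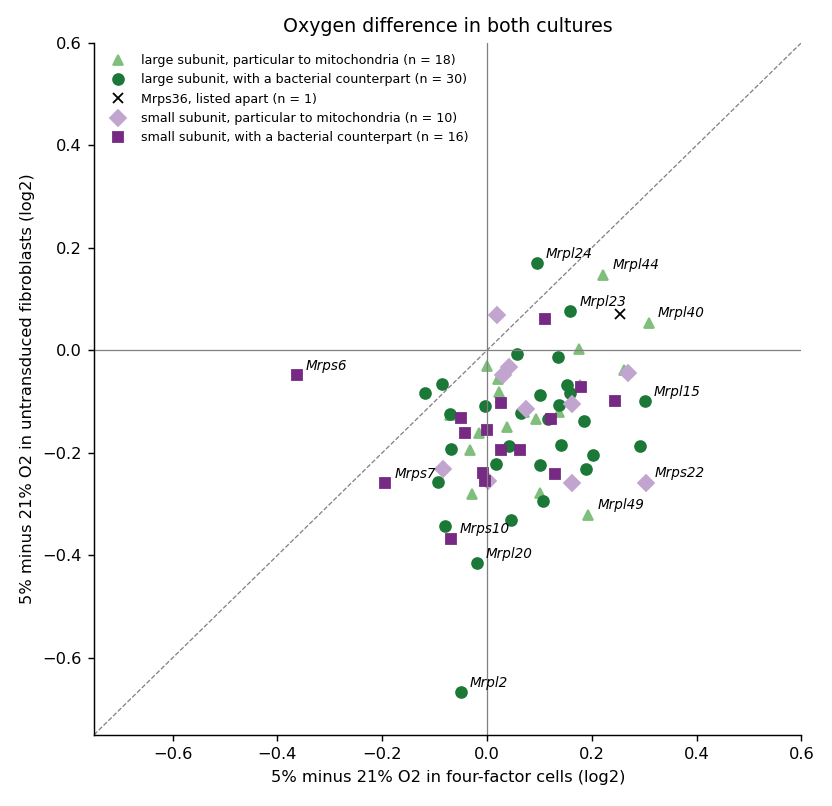
Difference between 5% and 21% O2 (log2) in four-factor cells (x axis) and untransduced fibroblasts (y axis) for each of the 75 genes, marked by subunit class, with the dashed line at equality and 1 array per condition. The lower right quadrant, higher at 5% O2 in four-factor cells and lower in untransduced cells, holds 44 genes and the upper left none; Mrpl2 and Mrps6 stand apart.

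For the oxygen term of the additive fit, none of the 75 genes passed (limma, smallest adjusted p 0.785), nor did any of the 18828 genes fitted (smallest 0.467). At an unadjusted p under 0.05 the counts were 0 of the 75 genes and 656 higher and 763 lower of all genes. A hypoxia list, measured as a check of the oxygen labels, had 17 of 17 genes higher at 5% O2 in four-factor cells (median 1.54) and 16 of 17 in untransduced cells (median 0.90).

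Other cell type and cell cycle lists also differed in these comparisons. The 16 cell cycle genes had medians of 0.50 and -0.32 in the oxygen comparisons (four-factor, then untransduced) and of 1.42 and 2.21 between cultures at 21% and 5% O2; their summed signal was 200 and 268 in four-factor cells and 78.8 and 66.1 in untransduced cells. Macrophage markers, of which 10 of 11 were well above background in untransduced cells at 21% O2 and 11 of 11 at 5% O2, had a summed signal of 2.01 and 5.41 there and of 0.66 and 0.52 in four-factor cells, in which Adgre1, C1qa, C1qc, Mrc1, Aif1, Fcgr1 and Ptprc were not well above background. Of the 4 macrophage markers measured in both cultures, Cd68 alone was higher in four-factor cells at 21% O2 (0.85), and all 4 were lower at 5% O2. The 6 adipocyte markers summed to 39.1 and 88.0 in untransduced cells and 1.60 and 1.69 in four-factor cells. Nearly all of the sum in untransduced cells was 1 gene, Lpl, at a log2 signal of 5.252 and 6.425. Adipoq and Plin1 were well above background in untransduced cells at 5% O2 alone, where they were dim (-4.86 and -4.85). Cidec and Lep were well above background on no array. The 9 epithelial markers summed to 10.9 and 17.0 in four-factor cells and 2.0 and 3.06 in untransduced cells, with Epcam not well above background in untransduced cells. Of those measured in both cultures, 2 of 4 were higher in four-factor cells at 21% O2 and 4 of 6 at 5% O2. The keratin gene Krt8 was higher by 4.12 and 4.60 between cultures and by 1.37 at 5% O2 in four-factor cells. The keratin gene Krt18 went the other way (-0.08 and -0.56 between cultures, -0.47 by oxygen in four-factor cells). Between cultures Cldn7 was also lower (-0.87 at both oxygen levels). The 5 endothelial markers summed to 0.40 to 1.37 and the 5 skeletal muscle markers to 0.66 to 1.40 over the arrays, with Pecam1, Ckm and Myog well above background on none. The part of these in the ribosomal protein differences was not tested.

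The rest of the mitochondrial translation system was read from lists, whose counts stand against 27.1% of all genes called higher and 22.5% called lower by the culture term. Of 8 genes listed as proteins of the mitochondrial ribosome under other names all were higher in four-factor cells at both oxygen levels, with medians of 0.53 and 0.55, led by Ptcd3 (1.49 and 1.83) and Gadd45gip1 (0.88 and 1.22), and 4 were called higher. One of them, Lactb (0.48 and 0.35), is not placed in the ribosome by later structures, and the other 7 were all higher, with medians of 0.58 and 0.64. Mrpl42, which the array names D10Ertd322e and which was added after its values were seen, differed by 0.66 and 0.94. Of 18 translation factors 7 (38.9%) were called higher and 0 lower, with medians of 0.60 and 0.46, among them the elongation factor Tufm (1.16 and 1.52) and the translational activator Taco1 (1.52 and 1.54). In untransduced cells 12 of these 18 were higher at 5% O2 (44.8% of all genes), and 8 of the 75 ribosomal protein genes were; the difference between the lists was not tested.

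Of 24 ribosome assembly and ribosomal RNA modification genes 9 (37.5%) were called higher and 0 lower, including the GTPase Noa1, at 1.49 and 1.76. Of 17 mitochondrial aminoacyl-tRNA synthetases 10 (58.8%) were called higher and 1 lower, and of 15 genes of mitochondrial DNA maintenance and transcription 8 and 2. In the last list the helicase Twnk was higher by 1.24 and 1.48 and Tfam, which packages mitochondrial DNA, by 0.49 and 0.81. Import and chaperone genes had medians of 0.91 and 1.19, with 19 of 23 (82.6%) called higher, led by Timm8a1 (2.44 and 2.90) and the chaperonin Hspd1 (1.65 and 2.12).

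Nuclear subunits of the respiratory chain and ATP synthase had medians of 0.40 and 0.63, with 30 of 74 (40.5%) called higher, and in untransduced cells 71 of 74 were lower at 5% O2 (median -0.20). Cytosolic ribosomal proteins had medians of 0.36 and 0.48, with 29 of 78 (37.2%) called higher. How far these lists differ from the mitochondrial ribosomal proteins was not tested. The mitochondrially encoded CYTB (0.48 and 0.45), ND4L (0.19 and 0.31) and COX2 (-0.11 and 0.10), which the mitochondrial ribosome translates, were under 1.5-fold apart and none was called (smallest adjusted p 0.0816, limma).

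**Figure D4:**
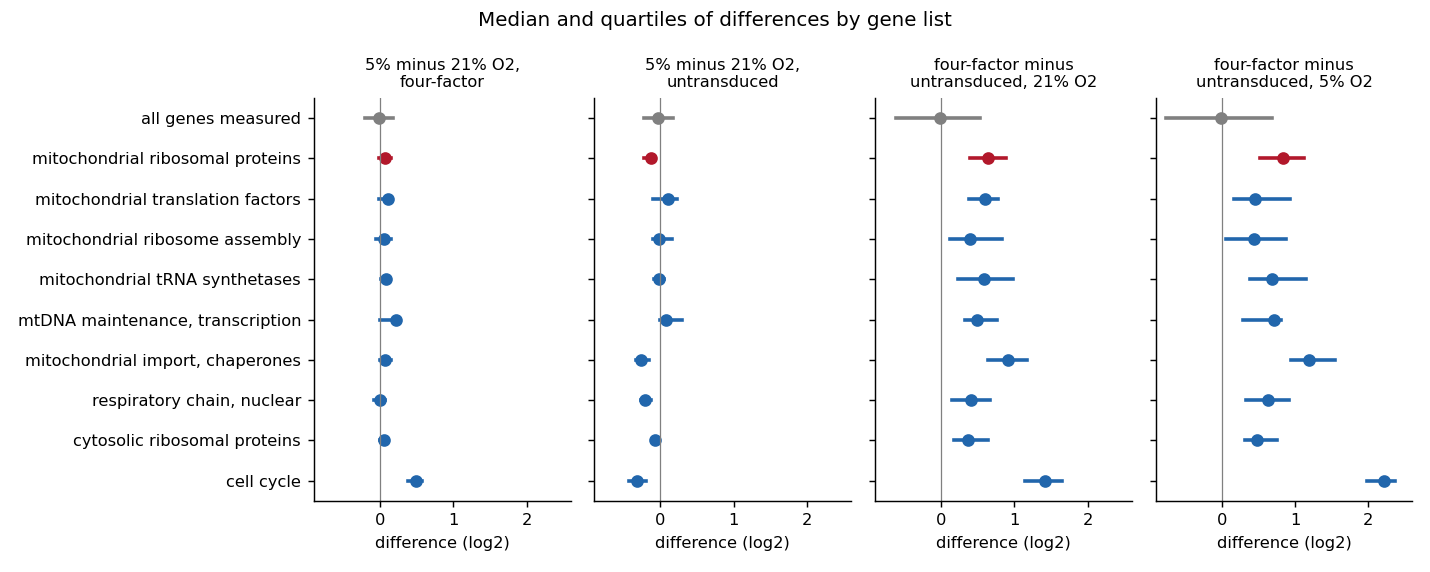
Median (dot) and quartiles (bar) over genes of the difference (log2) in each of the 4 comparisons, for all genes measured (grey), the mitochondrial ribosomal proteins (red) and other lists (blue); bars are spread between genes and not replicate error. The red medians between cultures are 0.63 and 0.84, with import and cell cycle genes further to the right and cytosolic ribosomal proteins nearer to 0.

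Among regulators of mitochondrial biogenesis, 5 of 11 were called higher between cultures and 1 lower. Myc differed by 2.59 and 4.17, and since c-Myc was also transduced, the part of the transgene in its signal was not tested. The coactivator Ppargc1b was higher by 2.46 and 2.52 and the nuclear receptor Esrra by 0.83 and 1.11, while the coactivator Ppargc1a, dim on all arrays, was lower by 1.59 and 2.25. Nrf1 was higher by 0.15 and 0.35, and Gabpa, the ETS subunit of the factor also called NRF2, by 0.62 and 0.60. Yy1 differed by 0.41 and 0.61.

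Promoters were read from RefSeq (GRCm38.p6) as windows of 250 bases before to 50 after the gene start. A window was found for 66 of the 75 genes. The letters CCGGAAG, a core bound by ETS factors, stood on either strand in 24 of 66 genes (36.4%), against 9.93% of all 27025 genes and 19.7% of the 9784 genes well above background on all arrays. The NRF1 core GCATGCG, which overlaps its own reverse complement, was found in 12.1% (4.01% and 7.21%), and the YY1 core AAGATGG in 18.2% (7.28% and 8.45%). The E-box CACGTG that Myc binds was in 7.58% (8.09% and 11.7%), ACGTG, the hypoxia response core that lies within it, in 24.2% (21.8% and 29.2%), CCAAT in 39.4% (41.1% and 43.1%) and TATAAA in 7.58% (15.7% and 9.2%). These shares were not tested; those of NRF1 and YY1 rest on 8 and 12 genes and those of the E-box and TATAAA on 5 each.

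Within the 66 genes, those with the ETS letters had a median difference between cultures of 0.63 at 21% O2 and 0.86 at 5% O2, and those without had 0.66 and 0.84. The 8 genes with the NRF1 core had 0.79 and 0.93 against 0.63 and 0.84 without it, and the 12 with the YY1 core 0.76 and 0.91 against 0.62 and 0.83. These differences were not tested. A match is a description of letters and not of a bound site.

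Windows are shown of 5 genes that hold the ETS letters, chosen after the values were seen. They come from both ends of the difference between cultures at 21% O2, since the motif is shared at both ends. The choice was among the 26 genes with 1 window that holds ETS or NRF1 letters. Mrps16, which also holds the ETS letters and differed by 0.0058, was not among these. The windows are written 5′ to 3′ on the strand of the gene, with ETS, NRF1, YY1 and E-box letters in capitals on either strand.
Mrpl34, chr8:71464676-71464975, plus strand: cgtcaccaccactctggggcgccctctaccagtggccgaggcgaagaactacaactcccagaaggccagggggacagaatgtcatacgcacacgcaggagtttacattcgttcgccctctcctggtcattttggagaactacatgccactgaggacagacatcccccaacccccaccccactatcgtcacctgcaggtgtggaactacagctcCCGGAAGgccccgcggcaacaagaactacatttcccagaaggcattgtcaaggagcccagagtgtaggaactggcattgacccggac
Mrpl18, chr17:12916042-12916341, minus strand: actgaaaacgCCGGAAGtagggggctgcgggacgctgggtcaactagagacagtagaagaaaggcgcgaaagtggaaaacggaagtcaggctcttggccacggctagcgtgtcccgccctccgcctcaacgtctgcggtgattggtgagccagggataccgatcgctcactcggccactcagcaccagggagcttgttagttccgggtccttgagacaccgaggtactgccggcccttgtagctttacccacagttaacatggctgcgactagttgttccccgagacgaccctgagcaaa
Mrps22, chr9:98601630-98601929, minus strand: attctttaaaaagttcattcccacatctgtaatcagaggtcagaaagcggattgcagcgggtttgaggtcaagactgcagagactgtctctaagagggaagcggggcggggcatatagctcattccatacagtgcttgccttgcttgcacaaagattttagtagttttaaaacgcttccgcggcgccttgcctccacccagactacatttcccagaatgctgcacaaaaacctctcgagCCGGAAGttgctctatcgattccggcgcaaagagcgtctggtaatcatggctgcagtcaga
Mrps33, chr6:39810887-39811186, minus strand: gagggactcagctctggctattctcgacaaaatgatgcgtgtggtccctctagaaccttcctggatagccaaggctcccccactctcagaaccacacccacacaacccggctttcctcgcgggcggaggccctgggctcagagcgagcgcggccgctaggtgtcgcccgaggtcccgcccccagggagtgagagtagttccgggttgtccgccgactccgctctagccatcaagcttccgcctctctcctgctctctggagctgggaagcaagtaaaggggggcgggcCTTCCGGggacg
Mrps18c, chr5:100798509-100798808, plus strand: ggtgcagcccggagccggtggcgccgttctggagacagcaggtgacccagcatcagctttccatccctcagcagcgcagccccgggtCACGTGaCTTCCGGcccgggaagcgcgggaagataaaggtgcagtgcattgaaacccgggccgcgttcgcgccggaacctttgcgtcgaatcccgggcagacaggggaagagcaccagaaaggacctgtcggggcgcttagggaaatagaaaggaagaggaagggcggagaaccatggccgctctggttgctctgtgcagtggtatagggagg
In these windows Mrpl34, Mrpl18 and Mrps22 hold CCGGAAG as written and differed by 1.57, 1.27 and 1.15 at 21% O2. Mrps33 and Mrps18c hold its reverse complement CTTCCGG, and Mrps18c also holds the E-box. By their brightest probe Mrps33 and Mrps18c differed by 0.16 and -0.03, while other probes of each were higher by more.

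**Figure D5:**
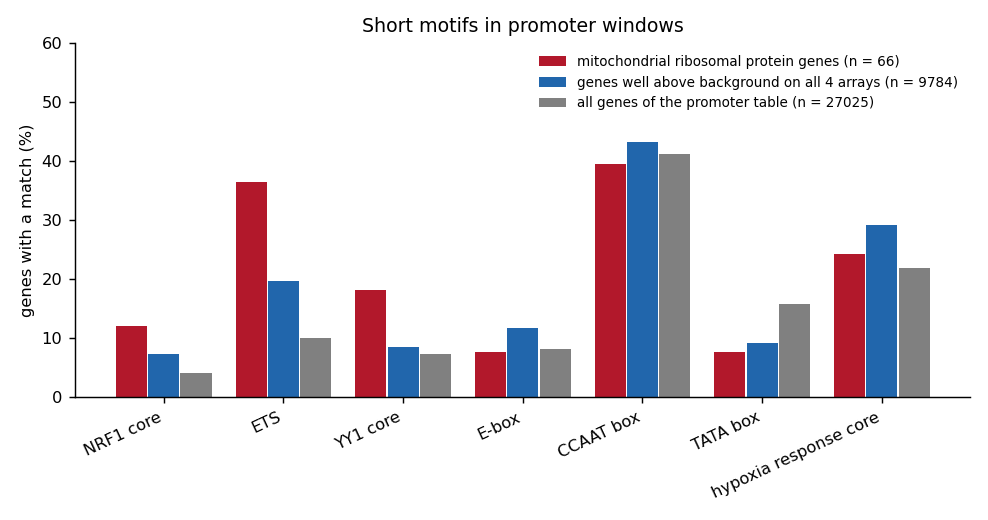
Percent of genes whose promoter window holds each motif on either strand, for the 66 mitochondrial ribosomal protein genes with a window (red), the 9784 genes well above background on all arrays (blue) and all 27025 genes of the table (grey). ETS letters are at 36.4%, 19.7% and 9.93%, while the CCAAT box is at 39.4%, 43.1% and 41.1%.

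Of the 66 genes with a window 26 (39.4%) had a gene starting in the opposite direction within 1000 bases, against 12.9% of all genes of the promoter table and 20.3% of those well above background on all arrays, a difference that was not tested. Among these Mrpl46 and Mrps11 were each other's partner, differing by 0.61 and 0.59 at 21% O2. Of 21 partners that were measured and lie outside the 75, 18 were higher in four-factor cells at 21% O2 (49% of all genes) and 17 at 5% O2 (49.3%), with medians of 0.43 and 0.59, where their ribosomal protein genes had 0.59 and 0.83. Mrpl18 (1.27) starts next to the chaperonin gene Tcp1 (0.78), Mrpl43 (0.41) next to Twnk (1.24), and Mrps12 (0.87) next to the mitochondrial seryl-tRNA synthetase Sars2 (0.16). Mrpl2 (1.16) starts next to the kinesin light chain gene Klc4 (-0.10), so partners did not always share a direction.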

How the data were processed

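Total RNA of 4 samples was isolated with Trizol and labelled with Cy3 by the Quick Amp protocol, per the labels' protocols. Agilent Feature Extraction 9.5.3.1 (build mm8) gave each spot a background-subtracted processed intensity with no normalization between arrays, per the file headers. The deposited value table holds log2 values; set against the scanner values it is log2 of the processed signal minus the 75th percentile, within 0.001 for 99.9% of probes, with column medians of -3.86 on both four-factor arrays and of -3.70 and -3.69 on the untransduced arrays at 21% and 5% O2. The software behind that table is not stated.

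Here each array was scaled the same way from its scanner values. Spots flagged as outliers were dropped (65 to 115 an array), spots of a probe averaged, and the brightest probe stood for a gene. A comparison used genes well above background on both its arrays, with thresholds of 1.5-fold and 2-fold and no test. The model was fitted with limma 3.58.1 (R 4.3.3) on genes that at least 2 arrays measured well above background, with Benjamini-Hochberg adjustment over all of them. Its code was run on simulated data with independent errors and additive effects, which checks the code and not the p values of these arrays. Accessions were matched to RefSeq (GRCm38.p6) for names: 108 of 125 probes matched, none to another symbol. No probe sequence was used here. The number of arrays limits the precision.

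Genes were named where at least 1.5-fold apart with all probes in 1 direction, among the 5 furthest in each direction, or where probes differed in direction by that much, besides 12 fixed genes; of other lists, the furthest. The members, lists and subunit classes were chosen with earlier results of these data known, and the promoter windows shown after their values were seen. The alternatives were normexp background correction (offset 50), quantile, spike-in and median scaling, the value table, other filters on dim probes, the mean over probes, outlier spots kept and a trended prior.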

Additional observations from a re-analysis of the deposited data

Results flagged for a closer look

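The oxygen difference ran in opposite directions in the cultures for 44 of 75 mitochondrial ribosomal protein genes, and its difference had a median of 0.23. Among the 5 widest, the cultures went in opposite directions for Mrps22 (difference of oxygen effects 0.56), Mrpl49 (0.51), Mrpl47 (0.48) and Mrps23 (0.42). Each culture had 1 array per oxygen level, so the difference was not tested. The opposite directions of Mrpl49 and Mrpl47 are those of their brightest probe, and a second probe of each had 1 direction in both cultures.

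Probes that did not stand for their gene gave a signal in untransduced cells at 5% O2. A probe of Mrps18b from a cDNA clone was at least 4.04-fold brighter there than at 21% O2, where it was not well above background, and its difference between four-factor and untransduced cells at 5% O2 was -2.28, while the bright probe of the gene was higher by 0.97. A probe of Mrpl35 from another cDNA clone was well above background on that array alone, at least 2.18-fold brighter than at 21% O2 and at least 8.47-fold brighter than in four-factor cells at 5% O2. Macrophage and adipocyte markers were also highest on that array; their part in these signals was not tested.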

How the results depend on the processing

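Of the values recomputed under the other settings named in the methods, 94 stayed within the spread between probes (medians) or within 1.5 times (counts), and 7 moved. No median changed sign. The counts took both directions together, so a change of direction could not show in them. Scaling on the spike-in controls moved the medians to 0.22 (oxygen in four-factor cells), 1.04 and 1.46 (between cultures at 21% and 5% O2) and the median difference of oxygen effects to 0.44. It gave 68 genes at least 1.5-fold apart at 21% O2 (57% of all genes) and 74 called by the culture term (62.9% of all genes). It moved the median of all genes to 0.14, -0.098, 0.39 and 0.61 in the 4 comparisons, and the ribosomal protein genes stayed 0.65 and 0.86 above it between cultures, as in the main setting. The mean over the probes of a gene gave 3 genes 1.5-fold apart by oxygen in untransduced cells in place of 1 (12.6% of all genes under either setting). Under that setting 70 of 75 genes were higher in four-factor cells at 21% O2 and 71 of 75 at 5% O2. At 5% O2 it gave 50 genes at least 1.5-fold higher and 3 lower, where the main setting gave 52 and 0. In both directions together 57.7% of all genes were that far apart, and 58% in the main setting. With normexp the oxygen median in four-factor cells, 0.054, was no higher than that of all genes, 0.057. With no filter on dim probes the oxygen median in untransduced cells, -0.13, was above that of all genes, -0.18, so neither oxygen median keeps its side of all genes under every alternative. The additive fit already compares the cultures within each oxygen level, and no further block was fitted. Leaving Lactb out, chosen after seeing the data, moved the medians of the proteins under other names by less than the spread between probes. Leaving out an array was not run, since it leaves no residual degrees of freedom. Slide and scan limit what the comparison between cultures can show.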
